A study of Mus musculus with 16 samples.

Results

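Lipid-associated macrophage genes were followed in gonadal white adipose tissue (gWAT) of 16 male mice, as the 10 rows of the expression table that carry the symbols *Gpnmb*, *Trem2*, *Tyrobp*, *Cd68*, *Cd9*, *Lgals3*, *Cd63*, *Plin3*, *Ms4a7* and *Mitf*, out of 19373 genes in all. The 10 genes were taken by their symbols, and were chosen with earlier results of these data known. The mice were of the C57Bl6/J strain, and all of them carried floxed *Mboat7*, the gene of an enzyme that acylates lysophosphatidylinositol. Control mice kept the gene, whereas *Mboat7* ASKO mice also carried Cre recombinase under the adiponectin promoter, which is active in adipocytes, so that macrophages and the other cells of the fat pad keep *Mboat7*. Each genotype was fed chow or a high fat diet (HFD) for 20 weeks, with 4 mice in each of the 4 groups (control chow, ASKO chow, control HFD, ASKO HFD) and 1 RNA-seq library per mouse. The mice of a group carry the numbers 0 to 3, and values below are given in that order. A level is in FPKM (fragments divided by transcript length and by library size), and a difference is between group means of log2(FPKM + 1) with its standard error (SE).

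Lipid-associated macrophages are macrophages that gather around lipid-filled and dying adipocytes in obese fat. They take up lipid, carry a large load of lysosomes and are recognised by the lipid receptor TREM2, which sits at the cell surface and signals through the adaptor TYROBP. Several of the proteins that mark them belong to the lysosome and its membrane, and MITF and its relatives are transcription factors that switch on lysosomal genes, *Gpnmb* among them in other cells.

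Promoters, the DNA next to the start of a transcript, are shown for 4 genes that rose on HFD in both genotypes. RefSeq promoters (GRCm38.p6, 250 bases before to 50 after the start) were found for 9 of the 10 genes, 12 promoters in all, and not for *Tyrobp*. In the lines that follow, capitals mark matches to TGANTCA, the AP-1 motif, or to GAGGAA, the core of the PU.1 motif, on either strand, with GAGGAA read as TTCCTC on the other strand.
*Gpnmb*, chr6:49036268-49036567, + strand: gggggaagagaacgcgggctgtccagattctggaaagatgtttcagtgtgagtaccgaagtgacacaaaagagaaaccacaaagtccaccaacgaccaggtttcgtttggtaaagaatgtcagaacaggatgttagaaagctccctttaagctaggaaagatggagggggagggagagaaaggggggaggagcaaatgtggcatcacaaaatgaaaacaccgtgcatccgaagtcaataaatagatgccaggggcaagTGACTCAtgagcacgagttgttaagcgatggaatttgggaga
*Trem2*, chr17:48346151-48346450, + strand: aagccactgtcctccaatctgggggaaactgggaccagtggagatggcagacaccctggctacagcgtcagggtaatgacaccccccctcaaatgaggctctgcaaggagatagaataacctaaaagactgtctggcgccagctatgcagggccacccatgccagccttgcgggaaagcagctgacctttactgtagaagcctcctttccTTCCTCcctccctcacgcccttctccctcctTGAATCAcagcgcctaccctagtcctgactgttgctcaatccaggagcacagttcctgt
*Cd68*, chr11:69666121-69666420, - strand: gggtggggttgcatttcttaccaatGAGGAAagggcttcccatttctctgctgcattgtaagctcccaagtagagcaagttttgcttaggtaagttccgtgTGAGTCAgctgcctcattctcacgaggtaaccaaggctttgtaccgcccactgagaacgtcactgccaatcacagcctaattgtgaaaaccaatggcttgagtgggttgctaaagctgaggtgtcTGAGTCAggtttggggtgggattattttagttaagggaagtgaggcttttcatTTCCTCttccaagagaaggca
*Lgals3*, chr14:47373610-47373909, + strand: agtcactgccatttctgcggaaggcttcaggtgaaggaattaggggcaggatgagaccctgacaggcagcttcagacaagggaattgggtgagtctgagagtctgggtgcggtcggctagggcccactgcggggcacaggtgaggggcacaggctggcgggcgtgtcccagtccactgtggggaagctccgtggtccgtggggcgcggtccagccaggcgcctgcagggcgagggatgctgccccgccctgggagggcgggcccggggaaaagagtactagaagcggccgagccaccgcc

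The *Gpnmb* promoter held 1 match to TGANTCA, 9 bases into the transcript, and the *Trem2* promoter held 1 that began 9 bases before its start. *Cd68* held 2, which began 149 and 24 bases before its start, and *Lgals3* held no match to any motif searched. Of the 12 promoters, 4 held TGANTCA, against 7.81% of all 32851 RefSeq promoters of this length. GAGGAA was found in 5 of the 12 and in 28.3% of all promoters. Of the 2 forms of the MITF/TFE motif searched, TCATGTG was found in 1 of the 12, the other of the *Ms4a7* promoters, and TCACGTG in none of them, and each form in 3.77% of all promoters. None of these motifs overlapped another in the promoters printed. A match is a run of letters and no evidence of binding.

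All 10 are protein-coding genes with introns, and their FPKM values cover exons alone. In the GENCODE M21 annotation (mm10), *Trem2* lies at chr17:48346401-48354147 (+ strand), its adaptor *Tyrobp* at chr7:30413760-30417585 (+), *Cd68* at chr11:69664213-69666153 (-) and *Lgals3* at chr14:47367751-47386160 (+). *Ms4a7* lies at chr19:11321039-11336146 (-) and *Plin3* at chr17:56277476-56292873 (-). *Mitf* (chr6:97807052-98021349, +), *Cd9* (chr6:125460266-125494791, -) and *Gpnmb* are all on chromosome 6, and *Cd63* is at chr10:128900989-128912822 (+).

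The library facts that touch these genes are as follows. Over the 16 mice the FPKM values summed to between 606370 and 982004, and the 10 highest genes took between 32.6% and 55.2% of the sum. Low values lay on steps worth between 2.44 and 4.41 FPKM on a transcript of 1 kb, which correspond to between 227000 and 410000 fragments per mouse if a step is 1 fragment, so that a level of a few FPKM rests on a few fragments. *Mboat7* was at 2.42, 4.33, 0.902 and 4.99 FPKM in control mice on chow and at 0, 1.39, 0 and 2.89 in ASKO mice on chow. On HFD it was at 0, 0, 2.15 and 1.61 FPKM in control mice and at 1.14, 0, 2.60 and 0 in ASKO mice, so the genotypes overlapped on both diets. Neither difference passed limma's test (adjusted p = 0.983 on chow), and the level of the targeted gene therefore does not check the genotype labels in these libraries. *Mboat7* shares exon bases with *Tsen34* on the other strand. Adipocyte markers were high in every mouse (summed level of the 7 markers at least 1058 FPKM), and macrophage markers were present in every group.

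On HFD, 5 of the 10 genes rose in both genotypes. These were *Gpnmb*, *Trem2*, *Tyrobp*, *Cd68* and *Lgals3*, with differences between 2.71 and 5.45 on the log2 scale in control mice and between 4.0 and 6.72 in ASKO mice. *Ms4a7* also passed the test in control mice. *Cd9* and *Cd63* were higher on average without passing the test, and *Plin3* and *Mitf* differed by less than the spread between mice. A gene passed, or was called, at a Benjamini-Hochberg adjusted p under 0.05 over the 13147 genes tested and an absolute difference above 0.5 in limma. By this rule 6 of 10 genes were called higher on HFD in control mice, where 1.81% of all genes tested were called higher, and 5 of 10 in ASKO mice, where 2.13% were. In each genotype, 6 of the 10 genes had every HFD mouse above every chow mouse, against 4.45% of the genes tested in control mice and 5.18% in ASKO mice. The median difference over the 10 genes was 2.70 in control mice and 3.25 in ASKO mice, and over all genes tested 0.00 and 0.03. All 10 genes passed the filter of at least 1 FPKM in at least 4 mice, but *Gpnmb* reached 1 FPKM in 2 chow mice, *Trem2* in 3 and *Ms4a7* in none, so that these 3 passed it through the HFD mice and the counts and medians are a description only.

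**Figure D1:**
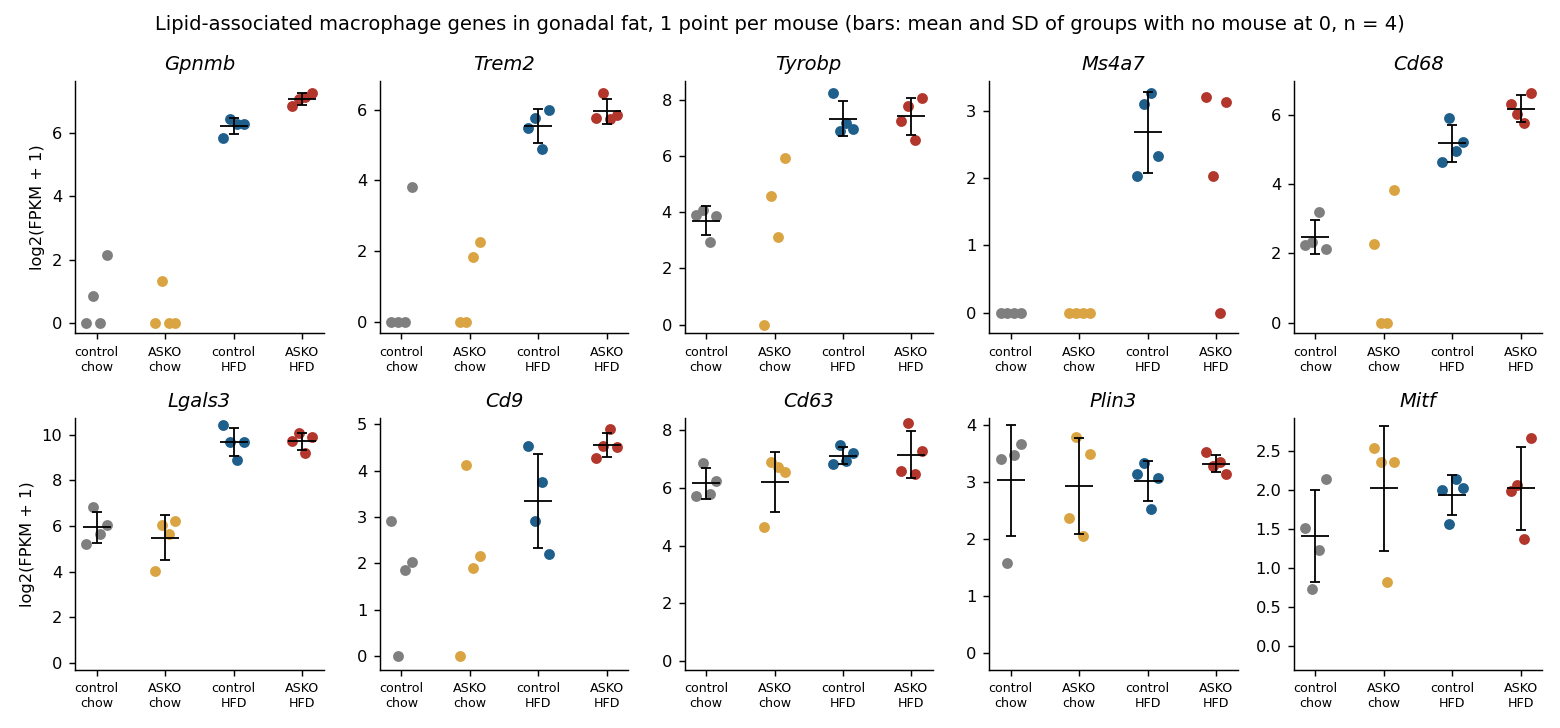
Level of each of the 10 genes as log2(FPKM + 1), with 1 point per mouse and the 4 groups along the horizontal axis; bars give the mean and SD (n = 4) where no mouse of the group is listed at 0. In the panels of *Gpnmb*, *Trem2*, *Tyrobp*, *Cd68* and *Lgals3* the HFD mice sit above the chow mice of their genotype, whereas the *Plin3* and *Mitf* panels show groups that overlap.

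*Trem2* encodes the lipid-sensing receptor that gives these cells their best-known marker. It was listed at 0, 0, 0 and 12.97 FPKM in control mice on chow and at 43.6, 53.6, 28.8 and 62.6 in control mice on HFD. In ASKO mice it was at 0, 0, 2.61 and 3.79 FPKM on chow and at 52.8, 88.2, 52.6 and 56.6 on HFD. Every HFD mouse was above every chow mouse, and a single chow mouse, control mouse 3, reached 12.97. The diet difference was 4.58 (SE 0.75, adjusted p = 0.00199) in control mice and 4.93 (SE 0.75, adjusted p = 0.000947) in ASKO mice.

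*Tyrobp*, the adaptor that carries the signal of TREM2 and of other receptors of myeloid cells, was at 13.9, 15.8, 6.75 and 13.7 FPKM in control mice on chow and at 303, 118, 144 and 124 on HFD. The mean was 13.7 times as high on HFD (12.5 ± 3.97 and 172 ± 88.0 FPKM, SD, n = 4). ASKO mice were at 0, 23.1, 7.67 and 60.0 FPKM on chow and at 149, 215, 94.4 and 268 on HFD, so the chow mice were spread widely below the lowest HFD mouse. The diet difference was 3.62 (SE 0.85, adjusted p = 0.0259) in control mice and 4.0 (SE 0.85, adjusted p = 0.0133) in ASKO mice. The call in control mice was lost when any 1 of the 8 control mice was left out (adjusted p from 0.0524 to 0.0846), and at a pseudocount of 0.1 (adjusted p = 0.182). In ASKO mice it was kept without each of the 8 mice in turn and lost at a pseudocount of 0.1 (adjusted p = 0.0553) and when only the ASKO groups entered the fit (0.110).

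*Gpnmb*, a glycoprotein of lysosomes and of the cell surface, had the largest diet difference of the 10. It was listed at 0, 0.826, 0 and 3.42 FPKM in control mice on chow and at 0, 1.54, 0 and 0 in ASKO mice on chow. On HFD it was at 55.8, 85.8, 76.5 and 76.7 FPKM in control mice and at 112, 132, 137 and 152 in ASKO mice. Every HFD mouse was above every chow mouse, and within HFD no mouse of one genotype fell in the range of the other. The diet difference was 5.45 (SE 0.46, adjusted p = 4.98e-06) in control mice and 6.72 (SE 0.46, adjusted p = 4.31e-07) in ASKO mice. The order of the group levels was ASKO HFD, control HFD, control chow and ASKO chow, of which the chow groups overlapped. The gene lies on chromosome 6 (mm10, 49036546 to 49070929, + strand, GENCODE M21), and no other annotated gene shares its exons.

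*Cd68*, a glycoprotein of late endosomes and lysosomes in macrophages, was at 3.72, 4.0, 8.06 and 3.32 FPKM in control mice on chow and at 23.8, 58.7, 30.2 and 36.0 on HFD. That is a mean 7.79 times as high (4.78 ± 2.21 and 37.2 ± 15.2 FPKM, SD, n = 4). ASKO mice were at 3.85, 0, 0 and 13.2 FPKM on chow and at 78.6, 63.3, 52.9 and 98.7 on HFD. All HFD mice were above all chow mice, and the ASKO chow mice ranged from 0 to a level above every control mouse on chow. The diet difference was 2.71 (SE 0.66, adjusted p = 0.0332) in control mice and 4.65 (SE 0.66, adjusted p = 0.000572) in ASKO mice. The call in control mice was lost in 6 of the 8 fits that left out 1 control mouse (all but chow mouse 2 and HFD mouse 0, highest adjusted p = 0.108), at a pseudocount of 0.1 (0.263) and with no filter (0.0524).

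*Lgals3* encodes galectin-3, a lectin that binds sugars on glycoproteins and is abundant in macrophages. It had the highest level of the 10 genes on HFD, with 1373, 816, 478 and 823 FPKM in control mice and 833, 1065, 578 and 943 in ASKO mice. On chow it was at 35.9, 113, 49.8 and 64.9 FPKM in control mice and at 15.4, 64.7, 49.5 and 72.6 in ASKO mice. The lowest HFD mouse was thus above the highest chow mouse by several fold, and the mean rose 13.2-fold in control mice (65.9 ± 33.5 and 873 ± 370 FPKM) and 16.9-fold in ASKO mice (50.6 ± 25.3 and 855 ± 207 FPKM, SD, n = 4). On the log2 scale the diet difference was 3.74 (SE 0.46, adjusted p = 0.000162) and 4.22 (SE 0.46, adjusted p = 4.90e-05). *Gpnmb*, *Trem2* and *Lgals3* kept their calls in both genotypes without each mouse in turn and under the 6 other settings tried.

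*Ms4a7*, a membrane protein with 4 membrane-spanning segments that is expressed in macrophages, was listed at 0 in all 8 chow mice. On HFD it was at 3.07, 7.58, 8.62 and 4.04 FPKM in control mice and at 8.21, 3.10, 0 and 7.75 in ASKO mice. With the longest annotated transcript, and if a step is 1 fragment, these levels correspond to at most 10.3 fragments. Every control mouse on HFD was above 0, but an ASKO mouse on HFD was listed at 0 like the chow mice. The test called the gene in control mice (adjusted p = 0.0160) and not in ASKO mice (adjusted p = 0.0604), and no fold is given against groups listed at 0. The first call was lost without control HFD mouse 1 (0.0522), and the gene was called in ASKO mice without ASKO HFD mouse 2, the one at 0 (0.00306).

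*Cd9* and *Cd63* are tetraspanins, proteins that organise other proteins in membranes, and CD63 is a marker of late endosomes that many cell types carry. *Cd9* was at 6.56, 0, 2.59 and 3.04 FPKM in control mice on chow and at 22.1, 6.51, 12.5 and 3.56 on HFD, which overlap. In ASKO mice it was at 0, 16.5, 2.73 and 3.44 FPKM on chow and at 18.4, 22.1, 28.8 and 21.7 on HFD, where every HFD mouse was above every chow mouse. The difference was 1.65 (95% interval 0.04 to 3.26, adjusted p = 0.335) in control mice and 2.51 (0.90 to 4.11, adjusted p = 0.0884) in ASKO mice, so neither passed over all genes. Without ASKO chow mouse 1, the one at 16.5 FPKM, *Cd9* was called in ASKO mice (difference 3.20, adjusted p = 0.0222). The exons of *Cd9* overlap those of *Gm26728* on the other strand, and whether strand entered the counting is not given in the sources used here.

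*Cd63* was at 51.4, 116, 54.7 and 73.4 FPKM in control mice on chow and at 113, 175, 119 and 147 on HFD. The ASKO levels were 24.2, 119, 104 and 91.6 FPKM on chow and at 95.7, 302, 87.6 and 152 on HFD. The group means differed 1.88-fold in each genotype (73.9 ± 29.8 and 139 ± 28.7 FPKM, and 84.7 ± 41.9 and 159 ± 99.3 FPKM, SD, n = 4), and the groups overlapped. The difference was 0.95 (95% interval -0.05 to 1.95, adjusted p = 0.387) in control mice and 0.94 (-0.06 to 1.94, adjusted p = 0.369) in ASKO mice. *Cd63* was thus high on both diets, above the chow level of every other gene of the 10 on average.

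*Plin3* encodes a perilipin that coats small lipid droplets in many cell types. It was at 9.67, 1.97, 10.1 and 11.7 FPKM in control mice on chow and at 7.82, 9.14, 4.78 and 7.41 on HFD. The ASKO levels were 4.16, 12.97, 3.17 and 10.2 FPKM on chow and at 10.5, 8.80, 9.21 and 7.85 on HFD. The ranges on HFD lay inside those on chow in both genotypes. The 95% interval of the diet difference ran from -1.06 to 1.04 in control mice and from -0.65 to 1.45 in ASKO mice, so that a change of 1 on the log2 scale in either direction is within it in control mice.

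*Mitf*, the transcription factor of lysosomal and pigment genes, was the lowest of the 10 on HFD. It was at 1.87, 0.669, 1.36 and 3.44 FPKM in control mice on chow and at 3.02, 1.96, 3.42 and 3.08 on HFD. In ASKO mice it was at 4.82, 4.13, 0.776 and 4.16 FPKM on chow and at 2.96, 3.19, 1.59 and 5.33 on HFD. All 4 groups overlapped, and the diet difference was 0.52 (95% interval -0.51 to 1.55) in control mice and -0.00 (-1.03 to 1.03) in ASKO mice. *Mitf* and *Cd63* are also expressed in mast cells and in pigment cells. The 5 mast cell markers summed to 0 to 5.99 FPKM in control mice on chow and 20.9 to 65.9 on HFD, and to 6.16 to 18.6 and 35.2 to 55.9 FPKM in ASKO mice, with *Cma1* and *Tpsb2* at 0 in all control mice on chow. The melanocyte markers summed to at most 1.96 FPKM in any mouse, over 3 of 5 listed in the table.

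**Figure D2:**
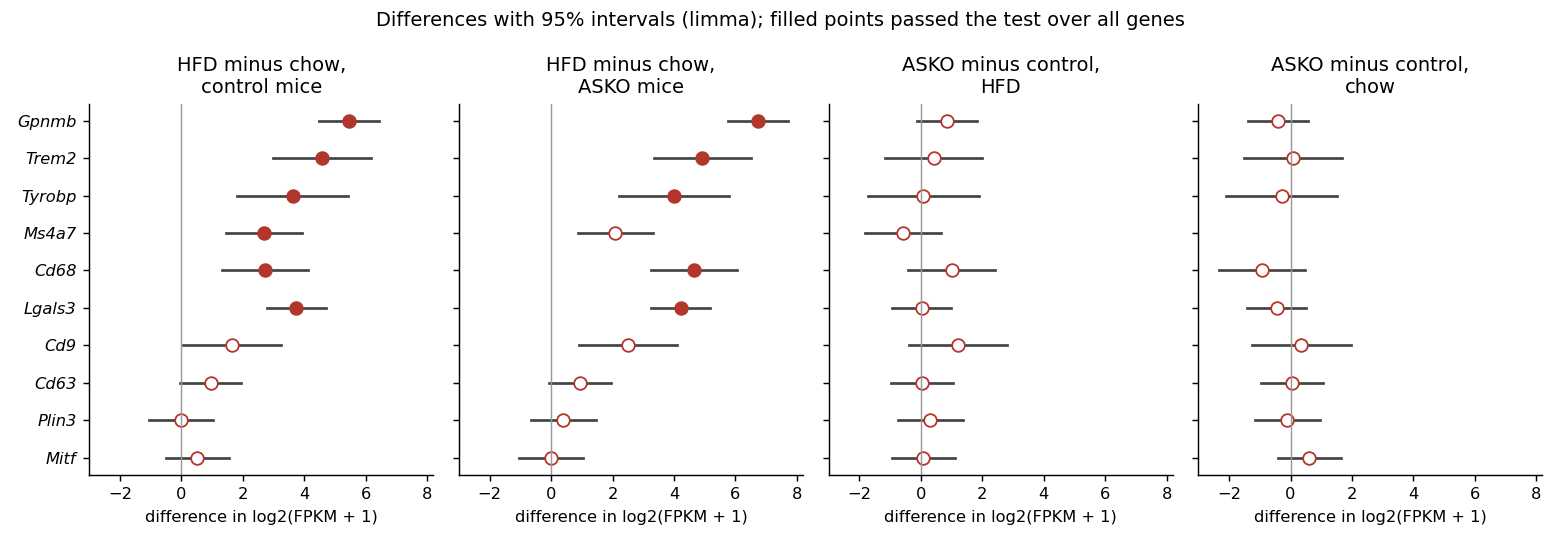
Differences in log2(FPKM + 1) with 95% intervals for each gene in 4 comparisons, HFD minus chow in control and in ASKO mice and ASKO minus control on HFD and on chow. Filled points were called over all genes tested. In the diet panels 6 and 5 points are filled, and in the genotype panels none is. *Ms4a7* has no point on chow, where it was listed at 0 in every mouse.

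None of the 10 genes was called between ASKO and control mice on either diet. The study, which compared the genotypes with Cufflinks, reported higher *Cd68* in ASKO mice on HFD. Its test differs from limma on FPKM, and the absence of a call here does not show that the genotypes are alike. On HFD limma called 1 gene of all tested (*Cdk20*, named because it was the only one), or 0.00761%, and the lowest unadjusted p among the 10 was 0.0817. No member had an unadjusted p under 0.05, while 677 of all genes tested did. On the log2 scale 9 of the 10 had a higher mean in ASKO mice and *Ms4a7* a lower one, though the sign turned for *Cd63*, *Lgals3*, *Mitf*, *Tyrobp* and *Ms4a7* when single mice were left out, and the median difference was 0.20, against 0.02 over all genes. The largest differences were those of *Cd9*, *Cd68* and *Gpnmb*. These comparisons use the same HFD mice as the diet comparisons.

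*Gpnmb* was the only one of the 10 with every ASKO mouse above every control mouse on HFD, a pattern that 1.69% of all genes tested showed. The means were 133 ± 16.5 and 73.7 ± 12.7 FPKM (SD, n = 4), 1.81 times as high in ASKO mice, and the difference was 0.86 (SE 0.46, 95% interval -0.12 to 1.83, adjusted p = 0.973). Leaving out each mouse in turn gave differences between 0.73 and 0.94. *Cd68* averaged 73.4 ± 19.9 FPKM in ASKO mice and 37.2 ± 15.2 in control mice, a ratio of 1.97, and the groups overlapped by control mouse 1 (58.7) and ASKO mouse 2 (52.9). Its difference was 1.0 (95% interval -0.40 to 2.41, adjusted p = 0.983). *Cd9* averaged 22.7 ± 4.34 and 11.1 ± 8.16 FPKM, with control mouse 0 (22.1) inside the ASKO range and a difference of 1.21 (-0.40 to 2.82, adjusted p = 0.978).

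*Trem2*, *Tyrobp* and *Lgals3* had closer means in the genotypes on HFD. The ratio of the ASKO to the control mean was 1.33, 1.05 and 0.979 for these genes, and their 95% intervals were -1.16 to 2.01, -1.71 to 1.88 and -0.93 to 0.99 on the log2 scale. The intervals of *Trem2* and *Tyrobp* hold changes of 1 log2 unit in either direction, and that of *Lgals3* ends just short of it on both sides. *Cd63*, *Plin3*, *Mitf* and *Ms4a7* gave differences of 0.04, 0.31, 0.09 and -0.59, and the interval of each held 0.

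On chow, none of the 10 was called either (0.00761% of all genes tested were), and no member had an unadjusted p under 0.05, against 631 of all genes. Of the 10 genes, 4 were higher and 5 lower on average in ASKO mice, and *Ms4a7* was at 0 throughout. No gene of the 10 had every ASKO mouse above every control mouse, as 1.06% of all genes did. The differences ran from -0.94 for *Cd68* to 0.61 for *Mitf*.

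Whether the diet difference itself differed between the genotypes was tested as an interaction, and limma called no gene of all tested (0%, with 827 at an unadjusted p under 0.05). Among the 10 genes the largest were *Cd68* (1.94, 95% interval -0.05 to 3.92, adjusted p = 0.796) and *Gpnmb* (1.27, -0.11 to 2.65, adjusted p = 0.796), and no member had an unadjusted p under 0.05. The higher number of calls in control mice, 6 against 5, is thus not shown to be a difference between the genotypes.

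The 10 genes did not rank the mice on HFD alike. Control mouse 0 had the highest *Tyrobp* (303 FPKM), *Lgals3* (1373) and, of the control mice, *Cd9* (22.1), but the lowest *Gpnmb* (55.8) and *Cd68* (23.8) of all 8 mice. ASKO mouse 1 was highest in *Trem2* (88.2) and *Cd63* (302), and ASKO mouse 3 in *Gpnmb* (152) and *Cd68* (98.7). ASKO mouse 2 had the highest *Cd9* (28.8) and the lowest *Tyrobp* (94.4) and was at 0 for *Ms4a7*. In ASKO mice on HFD the SD was 12.4% of the mean for *Gpnmb*, 12.1% for *Plin3*, 41.8% for *Tyrobp* and 62.3% for *Cd63*.

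**Figure D3:**
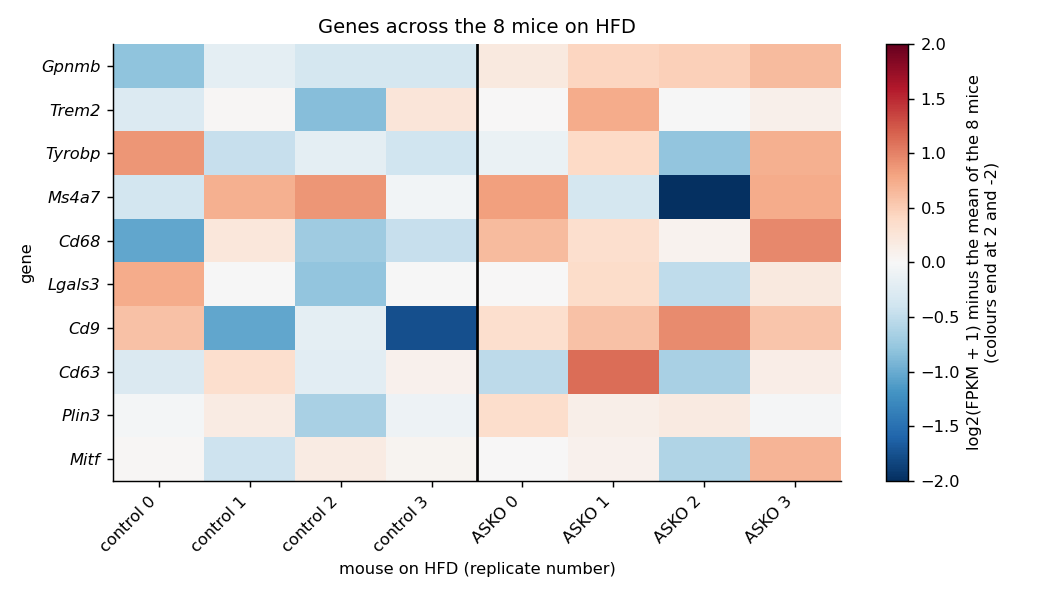
The 10 genes (vertical axis) in the 8 mice on HFD (horizontal axis, control mice left of the line and ASKO mice right of it), coloured by log2(FPKM + 1) minus the mean of the 8 mice. The *Gpnmb* row is blue in all 4 control mice and red in all 4 ASKO mice, while in control mouse 0 *Tyrobp*, *Lgals3* and *Cd9* are red and *Gpnmb* and *Cd68* are blue.

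Most markers that macrophages share in general were higher on HFD too, 15 of 16 on average in control mice and 14 in ASKO mice. *Mertk* was lower in both genotypes (-0.57 and -0.68) and *Csf1r* changed sign between them (0.41 and -0.43), and neither was called. The 16 pan-macrophage markers summed to 248 to 346 FPKM in control mice and 233 to 331 in ASKO mice on chow. On HFD they summed to 978 to 1364 and 1248 to 1776 FPKM. *Lyz2* and *Ctss* weigh most in the sum on HFD. Their means were 357 and 283 FPKM of a mean sum of 1172 in control mice, and 470 and 373 of 1540 in ASKO mice. On HFD, 7 of the 16 were called higher in control mice, beside 1.81% of all genes tested, and 10 in ASKO mice, beside 2.13%. The median differences over the 16 were 1.79 and 2.08, and none was called between the genotypes. *Fcgr1*, called in control mice, and *Fcer1g*, called in ASKO mice, were at 0 in all chow mice of that genotype. These counts and medians are a description only. Of the 8 markers of resident macrophages, none was called in control mice (limma, median 0.20) and *Mrc1* and *Folr2* were called higher in ASKO mice (median 0.93). The 8 did not move alike, with 4 lower on HFD on average in control mice and 3 in ASKO mice. *Lyve1* (-1.25 and -1.76), *Timd4* (-1.11 and -1.10) and *F13a1* (-0.38 and -0.32) were lower in both genotypes without being called. In bulk tissue, fewer cells of a type and less RNA of a gene per cell cannot be told apart. Adipocyte markers moved both ways. *Adipoq*, the hormone adiponectin, was called lower on HFD in both genotypes (-1.67, adjusted p = 0.00117, and -1.38, adjusted p = 0.0047), *Pnpla2*, the triglyceride lipase, lower in ASKO mice (-1.54, adjusted p = 0.0351), and *Lep*, the hormone leptin, higher in both genotypes (1.98, adjusted p = 0.00222, and 1.59, adjusted p = 0.0111). The sum of the 7 markers was lower on average, with ranges that overlapped (1714 to 3321 FPKM on chow and 1338 to 2276 on HFD in control mice, 1379 to 2762 and 1058 to 1489 in ASKO mice). Their part in the results was not tested. T cell and neutrophil markers were at or near 0 in all groups, with summed levels of at most 10.7 and 8.49 FPKM, and B cell markers reached at most 11.3. Of the other cell types, *Ptprc* of 4 leukocyte markers and *Lum* of 6 fibroblast markers were called higher on HFD in both genotypes, *Mcpt4* and *Tpsb2* of the mast cell markers were called higher in control mice, and *Lrrn4* of 4 mesothelial markers lower in control mice. None of 5 dendritic cell and 5 endothelial markers was called by limma in either diet comparison, nor was *Acta1* of skeletal muscle, and no marker of epididymis or testis had a value here.

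Set against the pan-macrophage sum of the same mouse, *Gpnmb* was at most 1.07 FPKM per 100 FPKM in any chow mouse. On HFD it was at 5.11, 6.29, 7.82 and 6.11 per 100 in control mice and at 7.18, 7.44, 10.95 and 9.68 in ASKO mice. The diets stayed apart on this scale, but the genotypes overlapped on HFD, by control mouse 2 and ASKO mice 0 and 1. *Trem2* averaged 3.97 ± 0.84 per 100 in control mice and 4.04 ± 0.71 in ASKO mice on HFD (SD, n = 4), and all but 1 of the chow mice were at 1.44 or below. The exception was control mouse 3 (4.07), which lay among the HFD mice.

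*Lgals3* also stood higher on this scale on HFD, with 75.1 ± 34.6 per 100 in control mice and 54.9 ± 6.52 in ASKO mice, against 21.3 ± 8.53 and 17.9 ± 9.12 on chow. *Cd68* averaged 3.11 ± 0.88 and 4.78 ± 1.17 per 100 in control and ASKO mice on HFD. Its diets overlapped on this scale in control mice (1.04 to 3.25 on chow, 2.19 to 4.31 on HFD) and in ASKO mice (0 to 5.02, 3.56 to 6.28). *Tyrobp* stood apart by diet in control mice (2.72 to 4.63 on chow, 8.66 to 27.8 on HFD) and overlapped in ASKO mice (0 to 22.8, 7.56 to 17.0). Other genes were lower relative to the sum on HFD. *Cd63* went from 23.9 ± 6.93 to 11.8 ± 1.08 per 100 in control mice and from 29.4 ± 13.3 to 9.95 ± 4.93 in ASKO mice, and *Plin3* from 2.88 ± 1.58 to 0.617 ± 0.10 and from 2.78 ± 1.67 to 0.601 ± 0.12. *Mrc1*, the mannose receptor of resident macrophages, was lower on this scale too (6.39 ± 1.67 to 2.98 ± 1.08 and 6.85 ± 0.59 to 3.05 ± 0.75). It was the only resident marker set on this scale and does not stand for the 8. *Folr2*, another of them, averaged 14.4 FPKM on chow and 55.2 on HFD in control mice, where the sum averaged 303 and 1172. In ASKO mice *Folr2* averaged 13.9 and 74.3 FPKM, where the sum averaged 279 and 1540. These ratios are a description and were not tested.

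**Figure D4:**
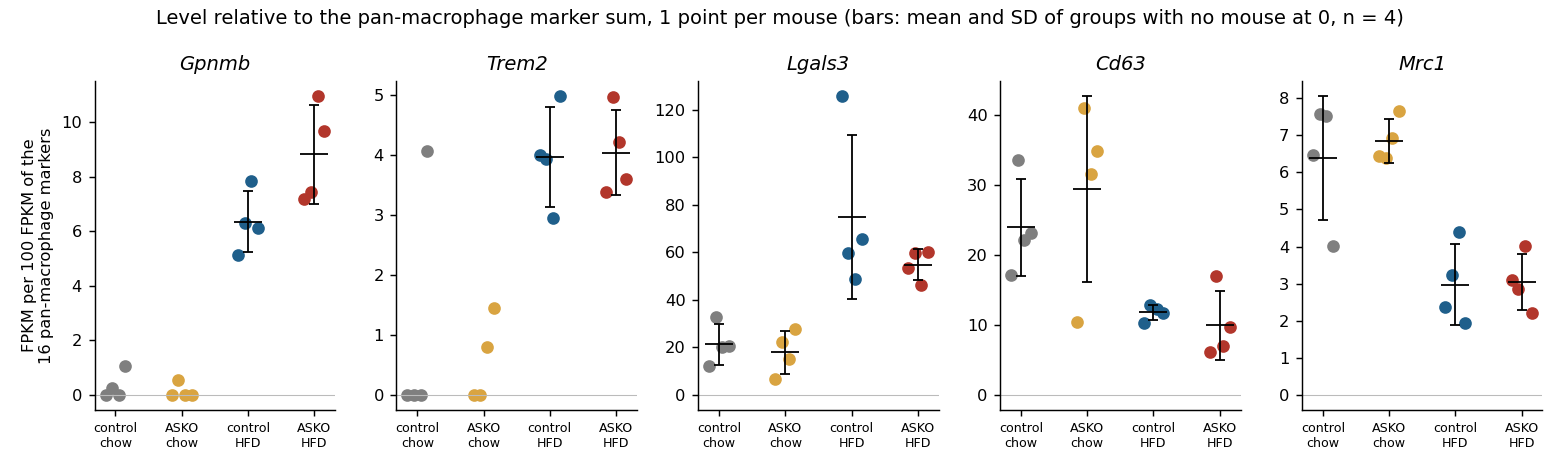
FPKM per 100 FPKM of the summed 16 pan-macrophage markers (vertical axis) for 4 of the genes and for *Mrc1*, the only resident marker set on this scale, with 1 point per mouse in the 4 groups; bars give mean and SD (n = 4) where no mouse is at 0. *Gpnmb* and *Lgals3* are higher on HFD than on chow in every mouse of each genotype, *Trem2* in all but control mouse 3 on chow, and *Cd63* and *Mrc1* are lower on average.

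Many other genes known from these macrophages also rose. Of 30 such genes, 29 were tested and 16 were called higher on HFD in each genotype, where 1.81% of all genes tested were called higher in control mice and 2.13% in ASKO mice, with a median difference of 1.87 in control mice and 2.01 in ASKO mice. None was called lower. *Itgax* was at most 0.741 FPKM in any chow mouse, so it passed the filter through the HFD mice. *Atp6v0d2*, *Spp1* and *Nceh1* were also low on chow, with group means of at most 1.61 FPKM. The counts and medians of this list are therefore a description only. *Atp6v0d2*, a subunit of the proton pump that acidifies lysosomes, was at 0 to 2.02 FPKM in control mice on chow and 67.5 to 82.4 on HFD, and at 0 to 3.17 and 96.0 to 114 in ASKO mice. *Mmp12*, the macrophage elastase, reached 86.3 to 171 FPKM in control mice and 118 to 205 in ASKO mice on HFD, from at most 5.19 on chow.

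Genes for the breakdown of lipid and protein in lysosomes were among those called. *Lipa*, the lysosomal acid lipase, was at 2.35 to 4.95 FPKM on chow and 23.8 to 48.4 on HFD in control mice, and at 1.88 to 5.97 and 57.4 to 64.6 in ASKO mice. The cathepsins *Ctsk*, *Ctsb* and *Ctsz* were called in both genotypes (differences of 4.53, 1.11 and 1.98 in control mice and 4.47, 1.73 and 1.57 in ASKO mice). *Ctsd* and *Ctsl* passed in ASKO mice (1.87 and 1.49) and not in control mice (1.09 and 1.08), but the interaction called no gene. *Nceh1*, a cholesterol ester hydrolase, and *Plin2*, the lipid droplet coat protein, rose in both genotypes (2.46 and 2.29 in control mice, 3.90 and 2.60 in ASKO mice). *Capg*, *Clec7a*, *Cd44* and *Cstb* were also called in both genotypes (4.50, 3.29, 2.76 and 1.85 in control mice, 2.65, 3.33, 3.62 and 2.31 in ASKO mice), and *Fabp5* and *Axl* passed in control mice (1.78 and 1.55) and not in ASKO mice (1.21 and 0.92). The most abundant of the set, *Anxa2*, *Npc2* and *Lpl*, did not pass in either genotype, and *Lpl*, a lipase that adipocytes make in quantity, had differences of -0.40 and -0.92.

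On HFD none of these 29 genes was called between the genotypes in limma, although 22 had a higher mean in ASKO mice. Their median difference was 0.43, against 0.02 over all genes tested. Of the 16 pan-macrophage markers 13 had a higher mean in ASKO mice too, and of the 8 resident markers 5 did. *Itgax*, the integrin CD11c, was at 8.51 to 26.3 FPKM in control mice and 34.6 to 47.4 in ASKO mice (difference 1.34, adjusted p = 0.824). *Spp1*, which encodes osteopontin, was at 4.48 to 7.87 and 17.4 to 23.4 FPKM (1.57, adjusted p = 0.901). These 2 genes and *Lipa*, *Ctsb*, *Ctsd*, *Atp6v0d2*, *Clec7a*, *Nceh1* and *Cd36* had every ASKO mouse above every control mouse on HFD, 9 of 29, beside the 1.69% of all genes given above, and none of the 29 had every ASKO mouse below. *Cd36*, the fatty acid transporter that adipocytes carry too, is named here because it belongs to that count. Among the pan-macrophage markers, 3 of 16 (*C1qb*, *Mpeg1* and *Ctss*) had the same order of mice, and among the resident markers none of 8 did. The part of the higher pan-macrophage level in this order of mice was not tested. These counts are a description only, since the lists were chosen with earlier results of these data known. The study had reported *Itgax* and *Clec7a* as higher in ASKO mice on HFD, and *Itgax* passed the filter through the HFD mice.

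**Figure D5:**
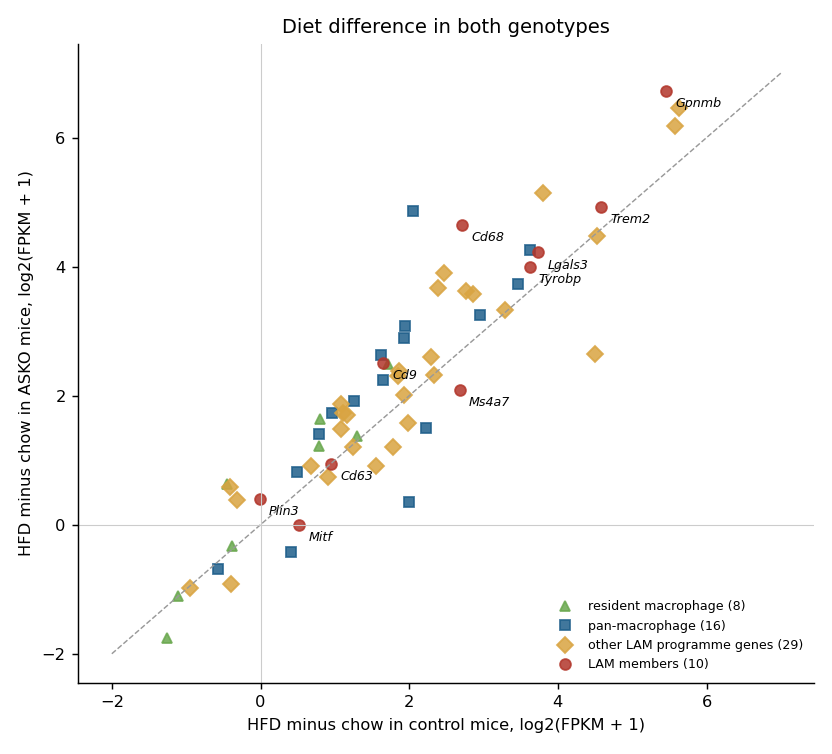
Difference between HFD and chow in control mice (horizontal axis) and in ASKO mice (vertical axis), both in log2(FPKM + 1), for the 10 genes, 29 other genes of these macrophages, 16 pan-macrophage and 8 resident macrophage markers; the dashed line marks equal differences. *Gpnmb* lies furthest up among the 10, at 5.45 and 6.72, and *Plin3* and *Mitf* lie near the origin.

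Of 15 signalling partners and ligands of TREM2 tested in limma, 1 was called higher in control mice and 2 in ASKO mice. Of all genes tested, 1.81% and 2.13% were called higher. In control mice it was *Sirpa*, an inhibitory receptor of myeloid cells (3.46, adjusted p = 0.0023). In ASKO mice they were the kinases *Syk* and *Btk*, which act below TYROBP and other receptors (2.14 and 2.23, adjusted p = 0.0355 and 0.0156). *Btk* was at 0 in all ASKO mice on chow, so the counts are a description only. *Apoe*, a lipoprotein that TREM2 binds and that adipocytes also make, was at 480 to 1099 FPKM in control mice and 551 to 1167 in ASKO mice on HFD, and did not pass (-0.62 and -0.78).

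The relatives of the 10 genes were also looked up. Of all genes tested, 1.81% were called higher in control mice and 2.13% in ASKO mice. In the CD300 and TREM family, *Cd300a* and *Cd300ld*, receptors of myeloid cells, were the 2 genes tested and were called higher in both genotypes (2.75 and 2.61 in control mice, 2.65 and 2.85 in ASKO mice). On chow *Cd300a* was at most 0.628 FPKM in control mice and averaged 0.993 in ASKO mice, so it passed the filter through the HFD mice. The counts of these family lists are a description only. Of 4 other perilipins, *Plin2* was called higher in both genotypes and *Plin4* lower in ASKO mice (-1.41, adjusted p = 0.0354). Of 4 other galectins, *Lgals3bp*, which encodes a binding partner of galectin-3, was called higher in control mice (1.82, adjusted p = 0.0410). None of 5 other tetraspanins, 7 other MS4A genes and the 3 relatives of *Mitf* (*Tfeb*, *Tfe3* and *Tfec*) was called by limma in either diet comparison, and no gene of any of these lists was called between the genotypes.

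The genes with the profile closest to that of *Gpnmb* over the 16 mice were *Atp6v0d2*, *Gm29439*, *Mmp12*, *Itgax* and *Trem2*, by the root-mean-square distance of log2(FPKM + 1) after each gene's mean was subtracted (0.77, 0.90, 0.96, 1.03 and 1.14). Of the other members, *Lgals3* came 11th, and *Plin3* was furthest. For *Trem2* the closest were *Tesk1*, *Atp6v0d2*, *Ctsk*, *Rfc2* and *Cd300c2* (0.82, 0.96, 0.98, 0.98 and 0.99). Of these, *Gm29439*, *Tesk1* and *Rfc2* share exon bases with genes on the other strand, *Cd22* (479 bases), *Cd72* (1423 bases) and *Lat2* (952 bases). The locus listed for each of the 3 runs past its annotated end. How the fragments of such a pair were divided cannot be told from the table, so these 3 names are uncertain. *Mmp12* also shares 157 bases with *Mmp1b*, and its listed locus runs past its annotated end too, so the same limit applies to it.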

How the data were processed

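One mRNA library per mouse was made from gWAT of 16 males, 4 in each of 4 groups. The authors trimmed reads with TrimGalore, used STAR and GENCODE models for alignment to mm10 and deposited FPKM values from Cufflinks for each gene and mouse. The submitters' processing notes also name Cuffdiff. The annotation release, the library normalization and the use of strand in counting are not given in the sources used here. FPKM gives no counts, and the depth behind a value was read only from the steps of low values in 1473 genes with 1 annotated transcript. Between 48.9% and 87.5% of those values lay within 0.2 of a whole step, against 40% for an even spread. The step of each mouse was the value that fitted best, so 40% is not a strict reference. Counts were not recovered and no count test was run. Fragment numbers cover counting error only.

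Of the identifiers, 99.57% matched the symbol table, 22 names that a spreadsheet had turned into dates were restored, and for 20 symbols with several rows the one highest on average was kept. A gene was tested where 4 or more mice reached 1 FPKM, on log2(FPKM + 1), which makes changes of low genes look smaller. All 16 mice entered a limma fit (version 3.58.1, R 4.3.3) with the intensity trend and no covariates, and p-values were adjusted by Benjamini-Hochberg over 13147 genes within each of 5 contrasts. A gene called for genotype on chow that is no member is not reported here. The members and lists were chosen with earlier results of these data known. Named genes were *Mboat7*, the 10 members, genes of the pathway and family lists that were called or of the 3 with the highest mean in their list, and the 5 nearest profiles of *Gpnmb* and of *Trem2*, and marker genes are named beside the counts they belong to. Tables were made with Python 3.11.15 and pandas 2.3.3, and plots with matplotlib 3.10.9. Settings tried were a pseudocount of 0.1, no filter, upper-quartile scaling, quantile normalization, a replicate block, only the groups compared, and each mouse left out.

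Replicate numbers were taken from the titles and mark different animals. Over 24 pairs of mice with the same number, the correlation of deviations from the group means ran from -0.19 to 0.15 (mean 0.00). Over 72 pairs with different numbers it ran from -0.10 to 0.26. By this measure 8 of 16 mice had their closest mouse of another group under the same number. These values do not settle whether the numbers pair the mice, and a fit with a replicate block is given below.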

Additional observations from a re-analysis of the deposited data

Results flagged for a closer look

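A mouse far from the other 3 of its group was found in 9 of 56 groups of values examined, where about 3 are found by chance by Dixon's test for 4 values. Of these, 3 concern *Trem2* or *Gpnmb*, which are low on chow. *Trem2* was at 12.97 FPKM in control mouse 3 on chow with the others at 0, *Gpnmb* at 1.54 FPKM in ASKO mouse 1 on chow with the others at 0, and *Trem2* at 88.2 FPKM in ASKO mouse 1 on HFD with the others at 52.6 to 56.6. *Tyrobp* stood out in control mouse 0 on HFD at 303 FPKM, where the others were at 118 to 144. *Cd68* was at 8.06 FPKM in control mouse 2 on chow (others 3.32 to 4.0), and *Mitf* at 0.776 FPKM in ASKO mouse 2 on chow (others 4.13 to 4.82). In control mouse 1 on chow the FPKM sum was 772400 (others 611900 to 636200) and the share of the 10 highest genes 42.0% (others 35.4% to 35.8%), and in ASKO mouse 3 on HFD that share was 54.2% (others 38.7% to 39.2%). Leaving out any of these mice did not change the calls of *Gpnmb*, *Trem2* and *Lgals3*.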

How the results depend on the processing

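Depth limits the low genes most, since a level of a few FPKM rests on a few fragments if a step is 1 fragment. The 4 mice a group leave wide intervals. Calls for *Gpnmb*, *Trem2* and *Lgals3* on HFD were kept under every setting tried, and those for *Tyrobp*, *Cd68* and *Ms4a7* were not, as given beside them. With the replicate block, the number of members called stayed at 6 in control and 5 in ASKO mice, and genes called numbered 361 and 390 (383 and 451 without it) for diet and 0 for genotype on HFD and on chow (1 and 1 without it). The closest mouse of another group had the same number for 8 of 16 mice.

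The number of genes called for diet was 255 in control and 265 in ASKO mice when only the groups compared entered the fit. For genotype on HFD it was 2 with no filter and 0 with quantile normalization, the replicate block and only the groups compared, and for genotype on chow 2 with no filter and 0 with upper-quartile scaling. The cause was not tested. Leaving out each mouse in turn gave 255 to 421 genes called for diet in control mice, 265 to 493 in ASKO mice, 0 to 3 for genotype on HFD, 0 to 4 on chow and 0 to 1 for the interaction. It gave 3 to 6 members called for diet in control mice (3 without control HFD mouse 1), 5 to 6 in ASKO mice and 0 for genotype and interaction.

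Upper-quartile scaling moved the median of all genes for diet in ASKO mice from 0.03 to 0.17. Of 1068 values of members under an alternative, 982 kept their direction and side of the threshold, 20 lost and 2 gained a call, and 64 turned sign, none of them called. *Plin3* in control mice went to 0.0346 at a pseudocount of 0.1 and 0.0421 with upper-quartile scaling, and *Mitf* in ASKO mice to 0.0635 and 0.157. *Cd63* went to -0.0278 and -0.0534 for genotype on chow and to 0.13 and 0.23 for the interaction with upper-quartile scaling and quantile normalization, and the *Trem2* interaction to -0.32 at a pseudocount of 0.1.

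Without single mice, the diet difference of *Mitf* in ASKO mice ran from -0.40 to 0.22 and that of *Plin3* in control mice from -0.50 to 0.20. For genotype on HFD, the ranges were -0.33 to 0.26 for *Cd63*, -0.22 to 0.28 for *Lgals3*, -0.13 to 0.30 for *Mitf*, -0.96 to 0.11 for *Ms4a7* and -0.13 to 0.40 for *Tyrobp*. On chow they were -0.18 to 0.57 for *Cd63*, -0.34 to 1.03 for *Cd9*, -0.75 to 0.0464 for *Gpnmb*, -0.70 to 0.0294 for *Lgals3*, -0.59 to 0.19 for *Plin3*, -0.33 to 1.03 for *Trem2* and -1.13 to 0.85 for *Tyrobp*. For the interaction they were -0.53 to 0.22 for *Cd63*, -0.96 to 0.11 for *Ms4a7*, -0.61 to 0.75 for *Trem2* and -0.76 to 1.22 for *Tyrobp*.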
